A study of Mus musculus with 6 samples.

Results

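Transcripts of the p53 circuit and of 3 initiator caspases were read on 6 arrays of sorted mouse hematopoietic stem cells. The circuit was taken as Mdm2 and Mdm4, which restrain p53, and the p53 targets Ccng1, Zmat3 and Trp53inp1, with Casp2, Casp8 and Casp9 as the caspases. Members were all probe sets of the array whose annotation gives 1 of 9 listed symbols and no other gene. This gave 8 genes with 18 probe sets, out of 18193 genes and 45037 probe sets on the array. The transcript of p53 itself, Trp53, is not analysed here.

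The cells came from the bone marrow of male C57Bl/6 (CD45.1) mice aged 10 weeks, with no genetic change or treatment named in either group. Both groups were Lineage-, Sca-1+ and c-Kit+ and fell in the side population, which holds the cells that stay dim because they expel a DNA dye. Lower-SP cells lay in the lower part of that gate and Upper-SP cells in the upper part, with 3 arrays each, made from 3 pools of mice sorted on separate days. The sorted cells were over 98% pure when run again, and their RNA was amplified by 2 rounds of in vitro transcription. The p-values therefore measure the spread between arrays, in which pool, sorting day and amplification cannot be told apart. The labels do not say whether a replicate number marks a sorting day shared by both groups.

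The p53 protein is a transcription factor that is kept low in unstressed cells and accumulates after DNA damage or oncogenic stress. Mdm2 is the ubiquitin ligase that marks it for degradation and is itself a p53 target, which closes a feedback loop. Mdm4 is a relative of Mdm2 that binds p53 and blocks its activity. In hematopoietic stem cells p53 is known for holding cells in quiescence and for clearing damaged cells. Initiator caspases start the proteolytic cascade of apoptosis: Casp8 downstream of death receptors, Casp9 on the apoptosome and Casp2 on the PIDDosome, where it can cleave Mdm2.

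The sequence before the start of a gene is shown for Mdm2 and Ccng1, the members whose window holds a p53 half-site, and for Casp2 and Casp8, the caspases whose transcripts fell. Each window is the 250 bases upstream of a start in RefSeq (GRCm38.p6), written 5′ to 3′ along the gene, and 6 of the 8 genes had an entry. Capitals mark matches on either strand to the p53 half-site, the CCAAT box (CCAAT), the GC box (GGGCGG) and TATAA, none of which overlap here. The half-site was taken as RRRCWWGYYY, where R is A or G, W is A or T and Y is C or T.
Mdm2, chr10:117710759-117711008, minus strand: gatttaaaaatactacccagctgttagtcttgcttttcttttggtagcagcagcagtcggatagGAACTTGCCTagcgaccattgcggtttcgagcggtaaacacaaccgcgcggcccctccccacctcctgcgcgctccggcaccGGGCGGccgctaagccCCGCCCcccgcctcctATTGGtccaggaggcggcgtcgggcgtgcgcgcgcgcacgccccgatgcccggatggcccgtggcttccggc
Ccng1, chr11:40755287-40755536, minus strand: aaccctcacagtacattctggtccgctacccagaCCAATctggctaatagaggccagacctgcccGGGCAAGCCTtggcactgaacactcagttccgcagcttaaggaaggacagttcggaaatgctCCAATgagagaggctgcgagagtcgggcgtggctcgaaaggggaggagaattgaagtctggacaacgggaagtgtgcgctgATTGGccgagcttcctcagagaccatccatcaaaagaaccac
Casp2, chr6:42264735-42264984, plus strand: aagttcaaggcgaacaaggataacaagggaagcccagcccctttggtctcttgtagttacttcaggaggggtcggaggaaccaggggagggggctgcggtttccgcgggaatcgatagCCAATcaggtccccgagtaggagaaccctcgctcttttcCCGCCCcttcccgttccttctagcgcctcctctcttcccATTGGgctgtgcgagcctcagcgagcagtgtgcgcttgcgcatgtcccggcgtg
Casp8, chr1:58802252-58802501, plus strand: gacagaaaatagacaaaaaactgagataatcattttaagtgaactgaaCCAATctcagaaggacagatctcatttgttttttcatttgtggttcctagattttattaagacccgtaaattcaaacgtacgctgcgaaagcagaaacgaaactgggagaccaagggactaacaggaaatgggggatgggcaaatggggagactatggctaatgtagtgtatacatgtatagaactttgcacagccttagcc

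The p53 half-site was matched once in the Mdm2 window, at position -186 from the start, and once in the Ccng1 window, at -185. It was matched in 7.13% of the 32851 windows of this length in the table. Binding of p53 to the matches in Mdm2 and Ccng1 was not tested, and sequence outside these windows was not searched. The windows of Casp2, Casp8 and Casp9 and both windows of Mdm4 held no match to the half-site within these 250 bases. The CCAAT box, found in 33.8% of all windows, was matched 3 times in Ccng1, 2 times in Casp2 and once each in Mdm2 and Casp8. The GC box, found in 32.7%, was matched 4 times in Casp9, 2 times in Mdm2 and once in Casp2. TATAA, found in 22.8%, was matched in no window of the members. The 2 caspases that fell together differed in base composition: the Casp2 window was 60.4% G and C with 17 CpG dinucleotides, and the Casp8 window 39.6% with 5, against medians of 52.4% and 6 over all windows. The Mdm2 window was 65.6% G and C with 29 CpG.

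A probe set was tested if it lay above log2 4, the upper edge of the background band, on at least 3 of the 6 arrays. This left 19613 probe sets, among them 13 of the 18 of the members, and each of the 8 genes kept at least 1. The other 5 probe sets (2 of Mdm4, 1 of Trp53inp1 and 2 of Casp9) read between 1.69 and 3.16 on every array and have no fold. A difference is the mean log2 value in Lower-SP less that in Upper-SP. Means are given ± SD over the 3 arrays of a group, and limma supplied each adjusted p, by Benjamini-Hochberg over all tested probe sets.

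In Lower-SP cells 2 of the 3 Mdm2 probe sets rose, while 1 probe set each of Mdm4, Casp2 and Casp8 fell. Of the raised Mdm2 probe sets, 1457929_at met the filter for testing only through its Lower-SP values. Of the 13 tested probe sets 5 passed at an adjusted p under 0.05, against 28.1% of all tested probe sets. Over all probe sets 10.7% were higher and 17.5% lower in Lower-SP, or 13.2% and 12.4% with cyclic loess scaling, which moved the median difference of all probe sets from -0.14 to -0.03. With that scaling 4 member probe sets passed, 2 higher and 2 lower, with Casp8 lost. The counts depended on single arrays. Without Upper-SP replicate 1, 0 member probe sets and 1666 of all 19613 passed, and without Lower-SP replicate 1 these were 0 and 3694. Without Lower-SP replicate 2 they were 1 and 3114, and without Upper-SP replicate 2 they were 1 and 2623. Read through the brightest tested probe set of a gene, 3 of the 8 genes passed in limma, against 27.7% of the 9460 genes tested. They were lower in Lower-SP (Mdm4, Casp2 and Casp8, against 20.7% of all genes), and 0 were higher (against 7.05% of all genes). At an unadjusted p under 0.05 in limma 0 of the 8 genes were higher too, against 10.9% of all genes. Of the 13 probe sets 6 had an unadjusted p under 0.05, against 41.7% of all tested probe sets. The median difference of the 13 was -0.29. In 6 of the 13 the Lower-SP and Upper-SP values did not overlap, against 46.1% of all tested probe sets. In these sorted bulk samples fewer cells with a transcript and less of it in each cell cannot be told apart.

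**Figure D1:**
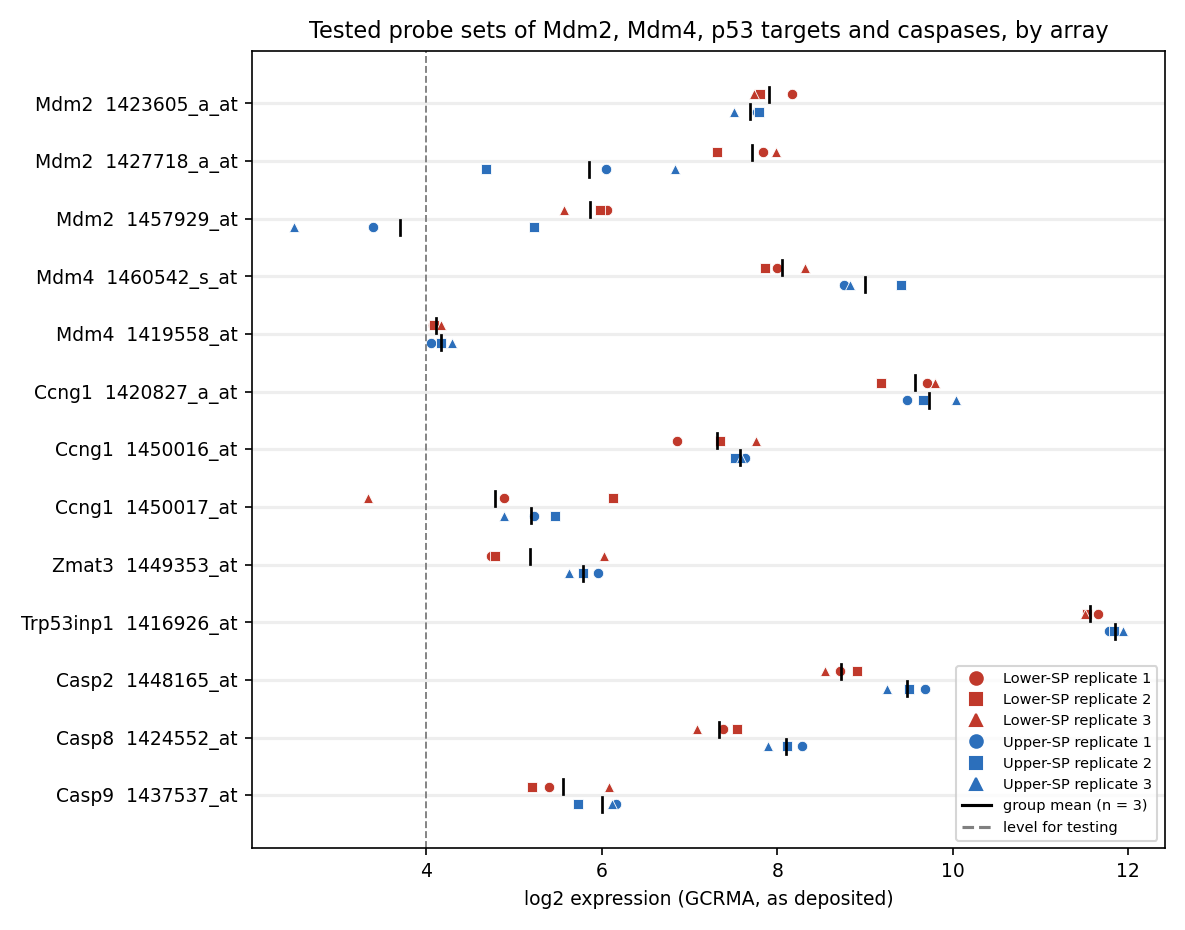
Log2 expression of the 13 tested member probe sets on each of the 6 arrays, with Lower-SP in red and Upper-SP in blue, a marker shape per replicate, a black bar at each group mean and a dashed line at the level for testing (log2 4). Lower-SP lies to the right of Upper-SP for Mdm2 at 1427718_a_at and 1457929_at and to the left for Mdm4 at 1460542_s_at, Trp53inp1, Casp2 and Casp8, and the groups overlap in the other rows. Levels of different rows are not comparable.

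The arrays were alike in signal: 19317 to 19666 probe sets lay above log2 4 on each. Of 12 listed stem cell markers 10 had a probe set and all 10 were tested, and their average ran from 9.98 to 10.1 across Lower-SP and from 10.1 to 10.3 across Upper-SP. Of these 10, 0 rose in limma (0 also at an unadjusted p under 0.05) and 3 fell, against 7.05% and 20.7% of all genes. With cyclic loess 1 rose (Meis1, 0.43) and 3 fell, against 9.76% and 14.5% of all genes. Kit, a marker of the sort gate, fell by 0.92 (adjusted p = 0.014), with -0.04 at another probe set that did not pass. Its call was lost with Upper-SP replicate 1 (-0.86) or 2 (-0.85), Lower-SP replicate 2 (-0.83) or both Lower-SP replicates 1 and 2 (-0.91) left out. Abcg2, the transporter that expels the dye, fell by 1.04 (adjusted p = 0.0047) and kept its call with each array left out in turn. The homeobox gene Hoxa9 fell by 0.48 (adjusted p = 0.0065), and did not pass without Lower-SP replicates 1 and 2 (-0.43). Slamf1 lay nearest background (4.72 against 4.76). The average of the neutrophil markers set 2 arrays apart. Of 14 listed neutrophil markers 13 had a probe set, and Elane and Cd177 lay under log2 4 on every array. The 8 tested averaged 10.4, 9.85 and 6.65 on Lower-SP replicates 1, 2 and 3 against 6.30, 6.58 and 5.26 on the Upper-SP arrays. Of the 8, 4 were higher in Lower-SP and 1 lower, against 7.05% and 20.7% of all genes. Among the higher, Lcn2 and Chil3 read under log2 4 on every Upper-SP array. They were tested only through Lower-SP, the group in which they are high, so their calls are no separate support. The lower one, Prtn3, read 11.45, 11.55 and 11.42 in Lower-SP and 12.11, 12.12 and 11.99 in Upper-SP (difference -0.60, adjusted p = 0.0067). Of 9 B cell and plasma cell markers with a probe set 5 were tested (averages 3.97 to 6.82 in Lower-SP, 6.84 to 7.13 in Upper-SP), with Cd79a, Mzb1, Tnfrsf17 and Derl3 under log2 4 on every array. Within that list Igha, an immunoglobulin heavy chain gene, read 9.4, 8.99 and 4.70 in Lower-SP and 12.43, 12.60 and 11.31 in Upper-SP, and the groups did not overlap. It fell by 4.42 (SE 1.1, adjusted p = 0.024). It passed at 2 further probe sets (-4.19 and -3.70), and with Lower-SP replicates 1 and 2 left out (-7.41). Its call was lost without Upper-SP replicate 1 (-4.26) or 2 (-4.17). The other tested markers of that list did not pass: Jchain (-1.82), Cd79b (-0.37) and Ighm (-0.33) were lower and Ms4a1 (0.42) higher. The part of the neutrophil, B cell and plasma cell markers in the members' values was not tested. Of 8 erythroid and 7 T and NK cell markers with a probe set, all but Car2 (11.82 ± 0.30 against 11.98 ± 0.081) and Nkg7 (5.71 ± 0.54 against 6.85 ± 0.27) lay under log2 4 on every array. Values are therefore also given with Lower-SP replicates 1 and 2 left out, which leaves a single Lower-SP array whose spread is assumed to be that of the other arrays.

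Mdm2 transcript at probe set 1427718_a_at read 7.84, 7.31 and 7.99 in Lower-SP replicates 1 to 3 and 6.05, 4.68 and 6.84 in Upper-SP replicates 1 to 3, the order kept below. All 3 Lower-SP values lay above all 3 Upper-SP values, and the Upper-SP arrays were the more scattered (SD 1.09 against 0.355). The difference was 1.86 (SE 0.51, 3.63-fold, adjusted p = 0.031). Probe set 1457929_at read 6.05, 5.98 and 5.57 in Lower-SP and 3.39, 5.23 and 2.49 in Upper-SP, where only replicate 2 exceeded the level for testing. It was therefore tested only through Lower-SP, the group in which it is high, so its call is no separate support. With Upper-SP values under log2 4 set to 4, Lower-SP was at least 2.75-fold higher (fitted difference 2.17, SE 0.62, adjusted p = 0.035).

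The brightest Mdm2 probe set, 1423605_a_at, did not pass. It read 8.17, 7.80 and 7.74 in Lower-SP and 7.77, 7.79 and 7.51 in Upper-SP, so that the groups overlapped. Its difference was 0.21 with a 95% interval from -0.26 to 0.69. The probe sets of 1 gene were compared as log ratios within each array. Each ratio set a probe set that passed against one that did not. That choice favours separate groups, so the ratios add no support to the calls. The ratio of 1427718_a_at to 1423605_a_at was -0.33, -0.49 and 0.25 in Lower-SP and -1.72, -3.11 and -0.67 in Upper-SP, a difference of 1.64. That of 1457929_at to 1423605_a_at differed by 1.95, with 1457929_at under the level for testing on Upper-SP replicates 1 and 3. In both the groups did not overlap, and the exact two-sided permutation test gave p = 0.10, the smallest that 3 against 3 arrays allow (p = 0.10 after adjustment over 3 such comparisons). A gene with both a probe set that passed and one that did not was common on the array: such a split, as in Mdm2 and Mdm4, was found in 44.0% of the 4076 genes read by 2 or more tested probe sets.

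The Mdm2 calls depended on single arrays. At 1427718_a_at the difference stayed positive but the call was lost without Lower-SP replicate 1 (1.79), 2 (2.06) or 3 (1.72) and without Upper-SP replicate 1 (1.96) or 2 (1.27). At 1457929_at it was lost without Lower-SP replicate 1 (2.08) or 2 (2.11) and without Upper-SP replicate 1 (2.01) or 3 (1.56). With Lower-SP replicates 1 and 2 both left out the differences were 2.13 (adjusted p = 0.13) and 1.87 (adjusted p = 0.26). Both calls were kept with cyclic loess, at 1.95 and 2.16.

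Over the 6 arrays, the genes whose pattern was most like that of the brightest Mdm2 probe set were Tox4 (Pearson r = 0.993), Taf11 (r = 0.989) and Hcfc2 (r = 0.988). They were chosen as the highest of all tested genes over only 6 arrays, so the size of r is set by that choice. Like 1423605_a_at, none of them passed: Tox4 differed by 0.24 (SE 0.19), Taf11 by 0.09 (SE 0.21) and Hcfc2 by 0.55 (SE 0.35). All 3 were highest on Lower-SP replicate 1, as the Mdm2 probe set was, and lowest on Upper-SP replicate 3.

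Mdm4, the second restraint on p53, went the other way at its bright probe set. At 1460542_s_at it read 8.0, 7.86 and 8.32 in Lower-SP and 8.76, 9.41 and 8.83 in Upper-SP, and every Lower-SP value lay under every Upper-SP value. It fell by 0.94 (SE 0.23, 1.92-fold, adjusted p = 0.022). Probe sets with names ending in _s_at can match transcripts of more than 1 gene, so the value may not be that of Mdm4 alone. Its other tested probe set, 1419558_at, lay at the edge of background, at 4.07, 4.09 and 4.17 in Lower-SP and 4.05, 4.16 and 4.29 in Upper-SP. These values overlapped (difference -0.06, 95% interval -0.48 to 0.37), and the ratio of 1460542_s_at to 1419558_at differed by -0.89 (exact permutation p = 0.10, groups not overlapping). This pair was chosen in the same way, with 1419558_at flat near background, so the ratio adds no support to the call. The call at 1460542_s_at was lost without Lower-SP replicate 1 (-0.91) or 2 (-0.84) and without Upper-SP replicate 1 (-1.06) or 2 (-0.74), and with Lower-SP replicates 1 and 2 both left out (-0.68, adjusted p = 0.20). It was kept with cyclic loess (-0.78).

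**Figure D2:**
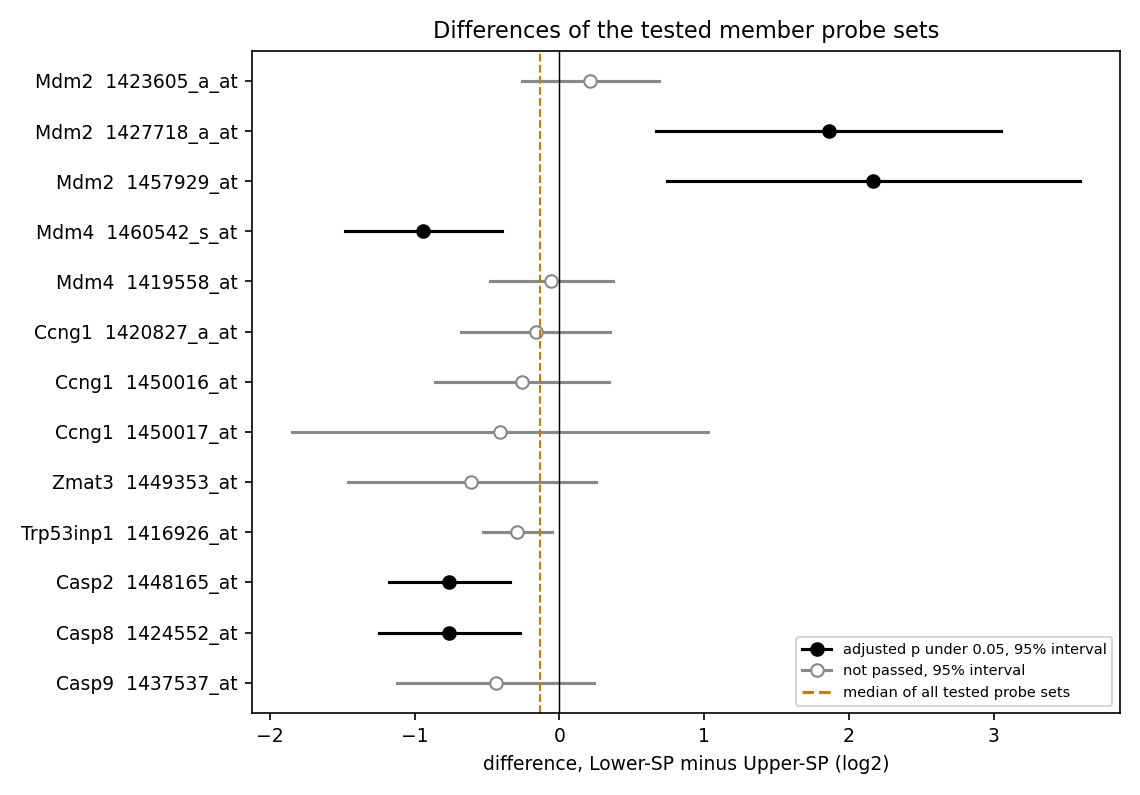
Difference of each tested member probe set (log2, Lower-SP minus Upper-SP) with its 95% interval from limma, filled where the adjusted p was under 0.05. The 2 raised Mdm2 probe sets (1.86 and 2.17) have the widest intervals of the probe sets that passed, and the lowered Mdm4, Casp2 and Casp8 probe sets lie between -0.94 and -0.76, left of the median of all tested probe sets (-0.14, dashed).

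Ccng1, Zmat3 and Trp53inp1 had 0 of 5 tested probe sets past the threshold of limma, against 28.1% of all tested probe sets. At an unadjusted p under 0.05 there was 1 (Trp53inp1), against 41.7%. So few probe sets cannot tell these counts from the shares of all. Trp53inp1, a stress-induced gene that promotes p53 activity and autophagy, read 11.65, 11.53 and 11.51 in Lower-SP and 11.78, 11.84 and 11.95 in Upper-SP at 1416926_at. The groups did not overlap and the spread was narrow (SD 0.0764 and 0.0849), but the difference was small, at -0.29 (SE 0.11, adjusted p = 0.075). It shrank to -0.09 with cyclic loess.

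Ccng1, which encodes cyclin G1, a p53 target that recruits a phosphatase to Mdm2, was read by 3 probe sets. At its brightest, 1420827_a_at, it read 9.71, 9.19 and 9.80 in Lower-SP and 9.48, 9.67 and 10.04 in Upper-SP (difference -0.16, 95% interval -0.68 to 0.35). At 1450016_at it read 6.86, 7.34 and 7.75 against 7.63, 7.52 and 7.59 (difference -0.26, interval -0.86 to 0.34). At both the groups overlapped, and the first turned to 0.03 with cyclic loess. The third, 1450017_at, was scattered within Lower-SP, at 4.88, 6.13 and 3.33 (SD 1.4), beside 5.22, 5.47 and 4.89 in Upper-SP (SD 0.292). Its highest and its lowest value were both Lower-SP arrays, and its difference of -0.41 (SE 0.62) turned to 0.31 without Lower-SP replicate 3 and to -1.86 (adjusted p = 0.030) with that array alone. Lower-SP replicate 3 also had the lowest average of the 5 tested B cell and plasma cell markers (3.97), and the part of these in the Ccng1 value was not tested.

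Zmat3, a p53 target that encodes a zinc finger RNA-binding protein, read 4.74, 4.78 and 6.03 in Lower-SP and 5.96, 5.79 and 5.62 in Upper-SP. Lower-SP replicates 1 and 2 lay under all Upper-SP arrays and replicate 3 above them. The difference of -0.61 (SE 0.37, adjusted p = 0.25) became -1.03 without Lower-SP replicate 3 (adjusted p = 0.014) and 0.24 with that array alone. Casp9, the caspase of the apoptosome, was likewise lowest on Lower-SP replicates 1 and 2 at 1437537_at. It read 5.4, 5.2 and 6.08 in Lower-SP and 6.16, 5.73 and 6.11 in Upper-SP. Its difference of -0.44 (SE 0.29, adjusted p = 0.29) became -0.70 without Lower-SP replicate 3 and 0.08 with that array alone. Lower-SP replicates 1 and 2 also had the highest averages of the 8 tested neutrophil markers (10.4 and 9.85). The part of these in the Zmat3 and Casp9 values was not tested.

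**Figure D3:**
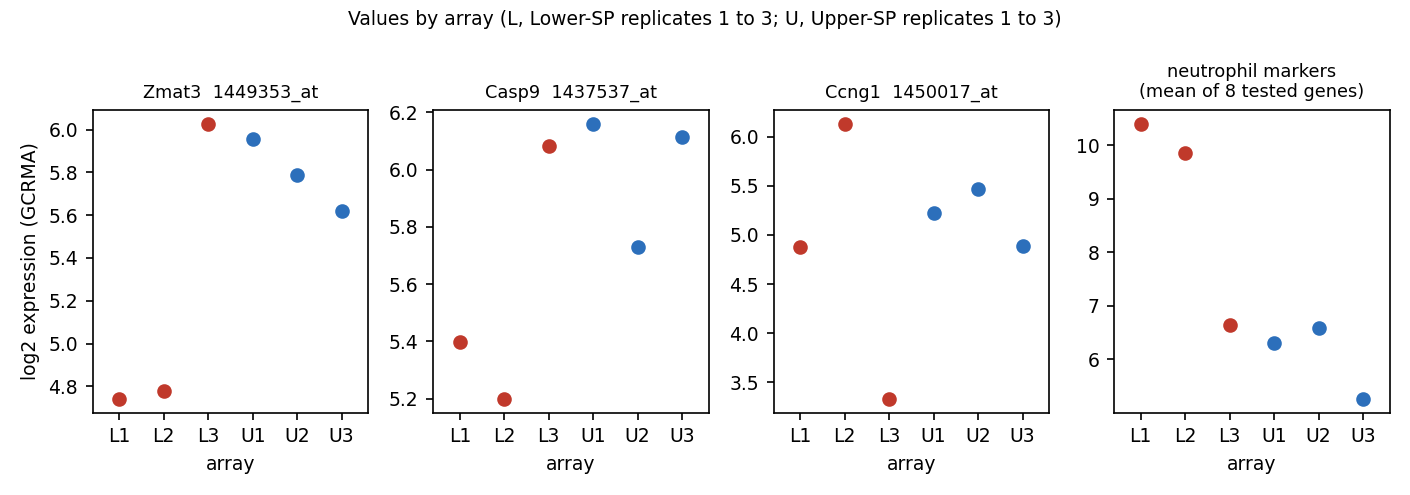
Log2 expression on each array of Zmat3, of Casp9, of Ccng1 at 1450017_at and of the mean of the 8 tested neutrophil markers, each with its own scale, for Lower-SP (L1 to L3, red) and Upper-SP (U1 to U3, blue). Zmat3 and Casp9 are lowest on L1 and L2, where the neutrophil mean is highest (10.4 and 9.85), while Ccng1 at 1450017_at is highest on L2 and lowest on L3.

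Casp2 and Casp8 fell by nearly the same amount. Casp2 read 8.72, 8.91 and 8.55 in Lower-SP and 9.69, 9.5 and 9.26 in Upper-SP at 1448165_at, its only probe set. It fell by 0.76 (SE 0.18, 1.69-fold, adjusted p = 0.020). Casp8 read 7.38, 7.55 and 7.09 in Lower-SP and 8.28, 8.11 and 7.89 in Upper-SP at 1424552_at, also its only probe set. It fell by 0.76 as well (SE 0.21, 1.69-fold, adjusted p = 0.033). In both, every Lower-SP value lay under every Upper-SP value. On either side replicate 3 was the lowest array for both genes.

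With Lower-SP replicates 1 and 2 left out, the differences were at least as large, at -0.93 for Casp2 and -1.01 for Casp8, without passing in that smaller fit (adjusted p = 0.064 for both). The Casp2 call was lost without Lower-SP replicate 1 (-0.75) and without Upper-SP replicate 1 (-0.65) or 2 (-0.75), and kept with cyclic loess (-0.58, adjusted p = 0.047). The Casp8 call was lost without Lower-SP replicate 1 (-0.78), 2 (-0.86) or 3 (-0.64), without Upper-SP replicate 1 (-0.67) or 2 (-0.75), and with cyclic loess (-0.62, adjusted p = 0.064). Casp2 and Zmat3 are the tested members whose probe set is annotated to a RefSeq mRNA. Of 2800 such probe sets 3.46% were higher and 26.7% lower.

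Other genes of the pathways were read from 5 lists with 119 names, of which 110 genes had a probe set and 89 were tested. Of these, 8 were higher and 19 lower in Lower-SP, or 8.99% and 21.3%, near the 7.05% and 20.7% of all genes. Their median was -0.05, beside -0.24 for all genes.

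Upstream regulators of p53 had 0 higher and 6 lower of 27 tested, against 7.05% and 20.7% of all genes, with a median of 0.17. The 0 holds for the brightest probe sets only. Other probe sets of Atr (1.23), Chek1 (1.58), Crebbp (1.01 and 1.80) and Nfatc2 (1.40) passed as higher, and another of Trim28 (-0.63) as lower. At an unadjusted p under 0.05 in limma 5 were higher and 8 lower, against 10.9% and 31.0% of all genes. The kinase Atm, which phosphorylates p53 after double-strand breaks, fell by 1.49 (SE 0.33, 7.07 ± 0.62 against 8.57 ± 0.26), with -0.65 at another probe set that did not pass. Pml, the scaffold of nuclear bodies that recruit p53, fell by 0.86 (SE 0.21, 8.61 ± 0.33 against 9.47 ± 0.17), with 0.11 at another probe set. The balance of this list depended on scaling: with cyclic loess 5 were higher and 2 lower, against 9.76% and 14.5% of all genes with that scaling, the 2 being Atm and Pml. With Lower-SP replicates 1 and 2 left out 1 was higher and 1 lower, and neither Atm (-0.94) nor Pml (-0.64) passed. Without Upper-SP replicate 1 both calls were lost (Atm -1.50, Pml -0.77), and without Upper-SP replicate 2 that of Pml (-0.87).

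Further p53 targets went both ways, with 3 higher and 6 lower of 27 tested, against 7.05% and 20.7% of all genes, and a median of -0.34. With cyclic loess 4 were higher and 6 lower, against 9.76% and 14.5% of all genes. Among those lowered, the antiproliferative gene Btg2 fell by 1.89 (SE 0.30, 7.14 ± 0.14 against 9.02 ± 0.58), and by 1.46 at another probe set that also passed. Bbc3, the BH3-only killer gene also called Puma, fell by 1.66 (SE 0.40, 6.34 ± 0.80 against 8.0 ± 0.29). Among those raised, the polo-like kinase Plk2 rose by 1.16 (SE 0.34, 6.93 ± 0.37 against 5.77 ± 0.57) and Ddit4, an inhibitor of mTORC1 signaling, by 0.81 (SE 0.17, 10.99 ± 0.28 against 10.19 ± 0.15). Cdkn1a, the p21 cell cycle inhibitor, which was singled out after its values were seen, read 11.01 against 10.65 and did not pass (0.36, adjusted p = 0.13), although cyclic loess brought it past the threshold (0.56). With Lower-SP replicates 1 and 2 left out 1 was higher and 3 lower, among them Ddit4 (1.06) and Bbc3 (-2.59). The Btg2 call was kept with each array left out in turn. Without Upper-SP replicate 1 or 2 the Bbc3 call (-1.54 and -1.62) and the Ddit4 call (0.77 and 0.75) were lost, the latter also without Lower-SP replicate 2 (0.78). The Plk2 call was lost without any one Lower-SP array (1.21, 1.31 and 0.95) and without Upper-SP replicate 1 (1.15) or 3 (0.88).

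Of the other caspases 1 of 4 tested was higher and 0 lower, with a median of -0.35 (1 and 0 at an unadjusted p under 0.05 in limma, where 10.9% and 31.0% of all genes were). Casp12, a caspase of the inflammatory group, rose by 1.63 (SE 0.39, 6.11 ± 0.30 against 4.48 ± 0.77), with -0.43 at another probe set that did not pass. Casp1, the inflammasome caspase, read 8.62 ± 0.26 against 9.05 ± 0.12 (difference -0.43, adjusted p = 0.12). Without Lower-SP replicates 1 and 2, 0 of the 4 passed (Casp12 at 1.64). The Casp12 call was also lost without Lower-SP replicate 2 (1.49) and without Upper-SP replicate 1 (1.57) or 2 (1.28).

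Caspase adaptors and activators had 0 higher and 4 lower of 13 tested, against 7.05% and 20.7% of all genes, with a median of -0.11. The list also held Cflar, Nol3 and Bfar, which restrain apoptosis. Bfar was 1 of the 4 lower (-0.78), a call lost with cyclic loess, so the count is not one of activators alone. At an unadjusted p under 0.05 in limma 1 was higher and 5 lower, where 10.9% and 31.0% of all genes were. With cyclic loess 1 was higher and 1 lower, where 9.76% and 14.5% of all genes were. Dedd2, a death-effector domain protein, fell by 1.08 (SE 0.28, 7.10 ± 0.38 against 8.19 ± 0.37) and Faf1, a Fas-associated factor, by 0.87 (SE 0.25, 8.54 ± 0.43 against 9.42 ± 0.27), a call lost with cyclic loess. Apaf1, the scaffold on which Casp9 is activated, read 5.28 against 4.51 and did not pass (0.76, adjusted p = 0.31). Fadd, the adaptor of Casp8, and Cradd and Pidd1, the adaptors of Casp2, were not bright enough to test. These 3 and Apaf1 were singled out after their values were seen. With Lower-SP replicates 1 and 2 left out 2 of the 13 were higher and 0 lower. The calls of Dedd2 and Faf1 were lost without Lower-SP replicate 1 (-1.15 and -0.83) or 2 (-0.87 and -0.69) and without Upper-SP replicate 1 (-0.97 and -0.81) or 2 (-0.99 and -0.78).

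Caspase inhibitors and substrates had 4 higher and 3 lower of 19 tested, against 7.05% and 20.7% of all genes, with a median of 0.00. With cyclic loess 5 were higher and 2 lower, against 9.76% and 14.5% of all genes. Birc6, a giant inhibitor of apoptosis protein, rose by 1.09 (SE 0.16, 8.92 ± 0.13 against 7.84 ± 0.012), and 2 of its 5 other tested probe sets rose too, by 1.63 and 2.31, while 3 did not pass (0.28, -0.31 and 1.55). Rock1, a kinase that caspases activate by cleavage, rose by 0.92 (SE 0.23, 10.01 ± 0.21 against 9.10 ± 0.42). Of its 4 other tested probe sets 1 passed (0.92), and those that did not read differences of -0.31, 0.94 and 1.15. The cytoskeletal substrate Add1 fell by 1.06 (SE 0.23, 9.95 ± 0.42 against 11.01 ± 0.26), with -0.01 at another probe set. Naip5 fell by 0.97 (SE 0.19, 10.37 ± 0.37 against 11.34 ± 0.054), a value that its near-identical relatives could share in. The Birc6 call was kept with each array left out in turn, and that of Naip5 was lost without Upper-SP replicate 1 (-0.96). The calls of Rock1 and Add1 were lost without Lower-SP replicate 1 (0.79 and -0.99) or 2 (0.98 and -0.90) and without Upper-SP replicate 1 (0.87 and -0.97) or 2 (0.73 and -1.0).

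**Figure D4:**
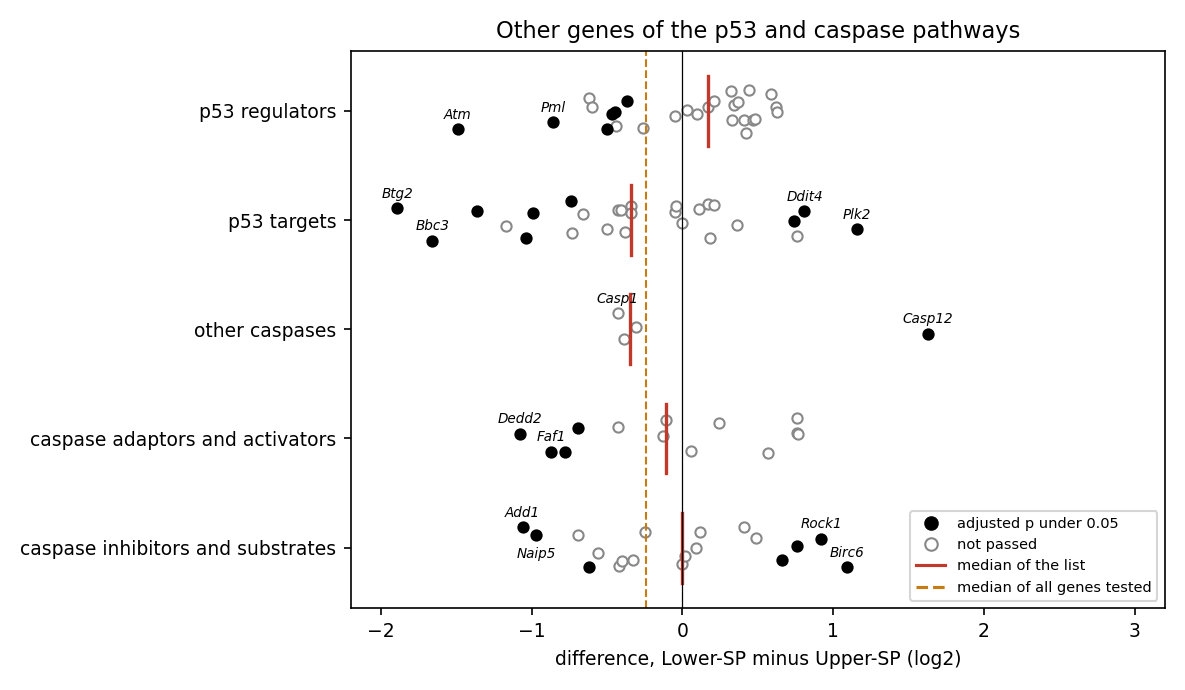
Difference of each tested gene of the 5 pathway lists (log2, Lower-SP minus Upper-SP), filled where the adjusted p was under 0.05, with a red bar at the median of a list and a dashed line at the median of all genes (-0.24). Filled points lie on both sides of 0 for the targets and for the inhibitors and substrates, on the lower side for the regulators and for the adaptors, and the 1 filled point of the other caspases is Casp12 at 1.63.

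**Figure D5:**
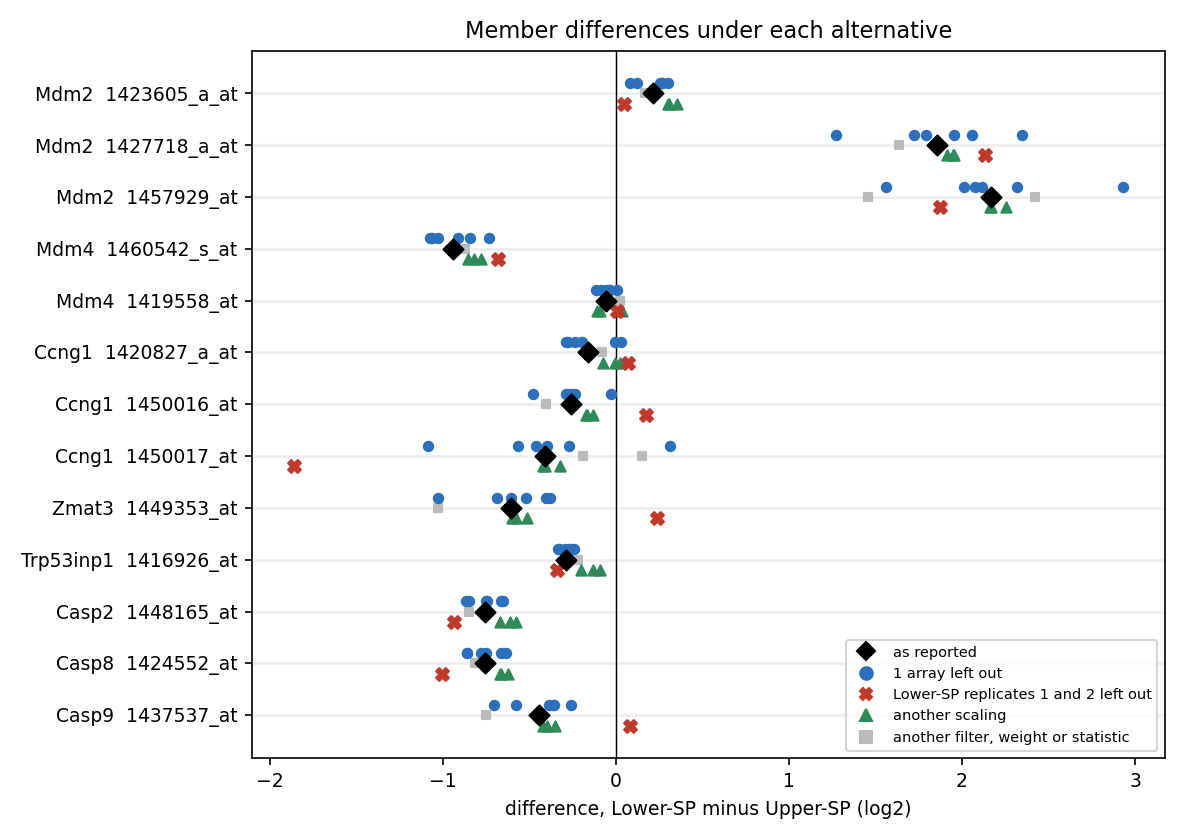
Difference of each tested member probe set as reported and under each alternative (log2, Lower-SP minus Upper-SP). The 5 probe sets that passed (Mdm2 at 1427718_a_at and 1457929_at, Mdm4 at 1460542_s_at, Casp2 and Casp8) keep their sign in all points, whereas Zmat3 and Casp9 turn positive (0.24 and 0.08) where Lower-SP replicates 1 and 2 are left out and Ccng1 at 1450017_at ranges from -1.86 to 0.31.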

How the data were processed

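The values are the log2 GCRMA signals that the authors deposited for 45101 rows of the array. GCRMA corrects background by probe sequence, normalizes between arrays and summarizes the probes of a set. It is named with GCOS 1.0, without parameters, per the submitters' processing notes. The genome build was not given in the sources used here. GCRMA compresses low signal into a band, so differences near log2 4 can be understated, which was not tested here. Every deposited array was used, and 0 pairs held identical values.

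Without the 64 control rows 45037 probe sets remained, of which 34945 had a single symbol in the platform annotation. Tests were two-sided and used limma 3.58.1 in R 4.3.3, fitting both groups together (6 arrays) and moderating variances along a trend, with 4 residual and 3.8 prior degrees of freedom. The replicate number was no term. The number of arrays limits the precision. A gene was read through its brightest tested probe set. The fit was tested on simulated data (19613 probe sets, 200 of them changed): it recovered 32.0% at a change of log2 1 and 98.0% at log2 2, with 2.99% false calls.

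Named were all members, up to 2 passing genes of each pathway list in each direction with the largest difference (in a list with fewer than 2 passing, those with the 2 smallest p), and the 3 genes most like Mdm2. The 9 members, the 5 pathway lists, the 5 marker lists and the alternatives were chosen with earlier results of these data known. Promoter windows are from RefSeq. Alternatives were other filters, a floor, other variance models, scalings and statistics, array weights, a replicate block, arrays left out and other representatives of a gene.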

Additional observations from a re-analysis of the deposited data

How the results depend on the processing

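The 5 member probe sets that passed kept their direction under every alternative run, but not their calls. No filter left 2931 probe sets, 0 member probe sets and 10 pathway genes past the threshold of limma (6 members had an unadjusted p under 0.05), against 5520, 5 and 27 as reported. Unmoderated statistics left 1967, 0 and 7 (5 members with an unadjusted p under 0.05). Array weights gave 10728, 8 and 51, and leaving out Lower-SP replicates 1 and 2 together gave 2715, 1 and 10. Leaving out 1 array at a time gave 1666 to 6397 probe sets, 0 to 4 member probe sets and 5 to 29 pathway genes, with 0 members without Lower-SP replicate 1 or Upper-SP replicate 1 (6 with an unadjusted p under 0.05 in each). The cause of these losses was not tested. The part of fewer arrays, or of a larger number of probe sets adjusted over, was not tested either.

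With the replicate number as a block 4180 probe sets, 3 member probe sets and 17 pathway genes passed, and Mdm4 at 1460542_s_at (adjusted p = 0.055) and Casp8 (adjusted p = 0.054) did not. Same-numbered arrays did not deviate together (r = -0.051, -0.029 and -0.023 across probe sets), so the numbers were not taken as pairs.

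Differences that had not passed turned positive as follows. Mdm4 at 1419558_at with median centring (0.032), array weights (0.023) and without Upper-SP replicate 3 (0.006). Ccng1 at 1420827_a_at did so with cyclic loess (0.026) and without Lower-SP replicate 2 (0.028). Without Lower-SP replicates 1 and 2, Mdm4 at 1419558_at (0.004), Ccng1 at 1420827_a_at (0.072) and 1450016_at (0.176), Zmat3 (0.239) and Casp9 (0.080) turned too. Ccng1 at 1450017_at did so with array weights (0.152) and without Lower-SP replicate 3 (0.314). Mdm4 at 1419558_at, Ccng1 at 1450017_at and Mdm2 at 1457929_at have values near or under log2 4, where small differences cannot be resolved. Zmat3 (4.74 to 6.03) and Casp9 at 1437537_at (5.20 to 6.16) were low but above that level on every array. With 1 array left out at a time, Mdm4 at 1419558_at ranged from -0.115 to 0.006, Ccng1 at 1420827_a_at from -0.286 to 0.028 and Ccng1 at 1450017_at from -1.086 to 0.314.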
